A study of Rapana venosa with 9 samples.

Results

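The family of miR-183, miR-263 and miR-182 in the veined rapa whelk (Rapana venosa) was followed through metamorphosis in small RNA libraries. The members were chosen by name from the authors' table of miRNA references, as the rows of miR-263-x, miR-183-x and miR-182-x and all rows of miR-96 and miR-228. They made up 5 of the 918 references in the table, and the 3 names miR-183, miR-263 and miR-182 had no row with another suffix. The 9 libraries came from precompetent larvae with 3 spiral whorls (Pre-CL), competent larvae with 4 spiral whorls (CL) and postlarvae, which are juveniles (PL), with 3 libraries per stage. The larvae were reared from wild parents on a diet of microalgae, and the labels give no treatment that differs between the groups. The methods give 40 to 100 individuals per replicate, yet they also say that RNA was taken from an individual intestine, and the files do not show which of these a library represents. No library was made from a sensory organ alone, and small RNA counts hold no marker of sensory cells, so the label of the family describes its known role in other animals and was not checked here. In these bulk libraries, fewer cells of a type and less RNA per cell cannot be told apart.

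A miRNA guides the silencing complex to messenger RNAs mainly through its seed, the bases 2 to 8 from its 5′ end. In vertebrates, miR-183, miR-96 and miR-182 are made from a single cluster and mark sensory cells such as hair cells, photoreceptors and sensory neurons, and mutations in the seed of miR-96 cause hearing loss in humans and mice. In Drosophila, the related miR-263a and miR-263b protect the cells of sensory bristles from programmed cell death, and in Caenorhabditis elegans the related miR-228 is expressed in glia. At metamorphosis, the swimming whelk larva loses its ciliated velum and becomes a crawling, carnivorous juvenile.

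The reference sequences of the 5 members are shown because they show which names share a sequence or a seed. They are printed 5′ to 3′ as DNA letters, with the seed in capitals.
miR-263-x: aATGGCACtggtagaattcacggg
miR-183-x: aATGGCACtggtagaattcacggg
miR-228-x: aATGGCACtggttgaattcacgga
miR-96-x: cTTGGCACtggcggaatagtca
miR-182-x: cTTGGCACttgtagaattcact

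The references of miR-263-x and miR-183-x were identical over all 24 nt. Their counts were therefore not separate measurements of separate miRNAs, and which tags were given to which name was not stated. The reference of miR-228-x carried the same seed and differed from that of miR-263-x by A13T and G24A, with positions counted from the 5′ end and the base of miR-263-x given first. These 2 mismatches equal the number that the authors allowed when they aligned tags. The references of miR-96-x and miR-182-x, both of 22 nt, carried a second seed, which differs from the first at position 2 (A2T). Over its whole length, miR-182-x was closer to miR-263-x, with 4 mismatches in 22 positions (A1C, A2T, G10T and G22T), than to miR-96-x, with 7 mismatches. miR-263-x and miR-96-x differed at 8 of 22 positions. None of the other references in the table had either seed or lay within 2 mismatches of a member. The members thus formed a group of 3 references with the seed of miR-263-x and a group of 2 with the seed of miR-96-x.

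The libraries held 3762511 to 6781384 miRNA counts and 8235539 to 10694742 clean reads. Counts were the numbers of sequenced tags that the authors assigned to each reference, and levels are these counts scaled to CPM, counts per 1000000 of the library size after TMM normalization. The summed counts were 101.2 to 102.2% of the reads annotated as miRNA in the larval libraries and 99.2 to 99.5% in the postlarval libraries, and the files do not show how single tags were assigned to references. A miRNA was called where edgeR's quasi-likelihood test gave an adjusted p under 0.05 over the 214 references tested and the fold change was over 2, and all 5 members passed the filter on low counts. Of the 214 references, 10.3% were called higher and 9.35% lower in CL than in Pre-CL, 22.4% higher and 14.5% lower in PL than in CL, and 28.5% higher and 22% lower in PL than in Pre-CL. The median log2 fold change of all tested references was -0.29, 0.20 and 0.06 in these comparisons. Scaling to total miRNA counts in place of TMM raised the last 2 medians to 0.79 and 0.63. It changed the calls between PL and CL from 48 higher and 31 lower to 76 higher and 17 lower. Between PL and Pre-CL the calls changed from 61 higher and 47 lower to 81 higher and 31 lower.

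miR-263-x was among the most abundant miRNAs of the larvae and was reduced to a trace of that level in postlarvae. Counts of miR-263-x were 352954, 361472 and 314280 in the Pre-CL libraries, 294627, 228843 and 230481 in the CL libraries, and 2164, 2316 and 2835 in the PL libraries. All 6 larval libraries were high, all 3 postlarval libraries were low, and the stages on either side of metamorphosis did not overlap. The level was 65600 ± 7303 CPM (SD, n = 3) in Pre-CL, 46271 ± 4943 CPM (SD, n = 3) in CL and 397 ± 77.3 CPM (SD, n = 3) in PL. By mean CPM, miR-263-x ranked 5th, 8th and 50th of the references in the 3 stages. The ratio of the mean CPM was 117 between CL and PL and 165 between Pre-CL and PL. miR-263-x fell from CL to PL by a log2 fold change of -6.87 (edgeR adjusted p = 1.2e-07) and from Pre-CL to PL by one of -7.37 (standard error 0.25, edgeR adjusted p = 7.5e-08). The change between the larval stages was -0.50 (standard error 0.19, edgeR adjusted p = 0.097), which was not called, although each CL library was below each Pre-CL library in CPM.

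**Figure D1:**
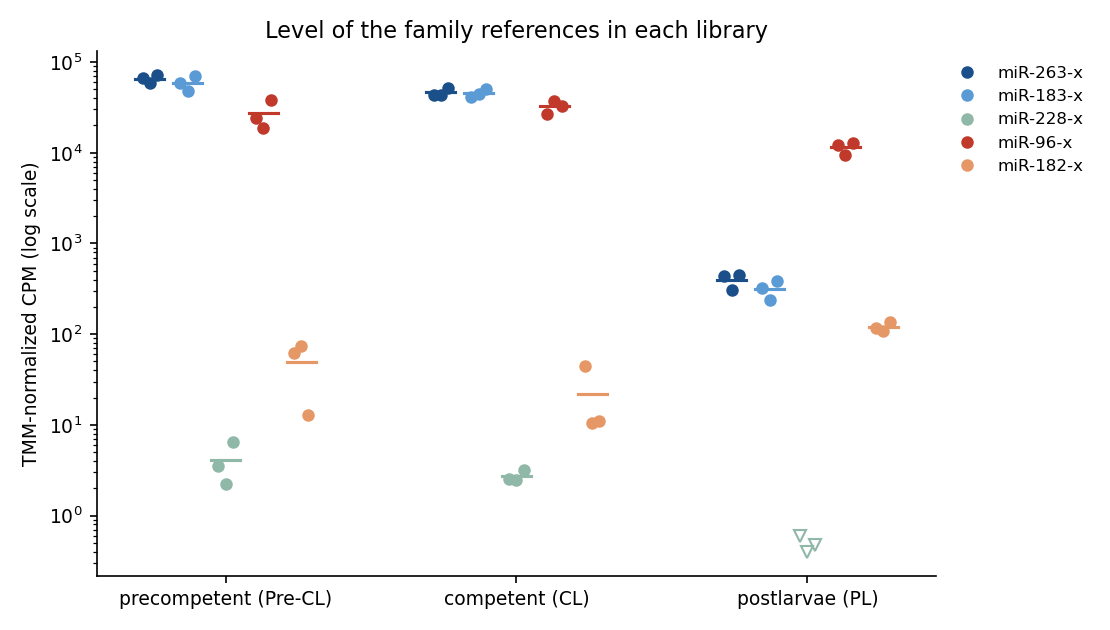
TMM-normalized CPM on a log axis for the 5 members in each library of the 3 stages. Points are libraries, short lines are stage means, and open triangles mark the level of 3 counts in PL libraries with no count of miR-228-x. miR-263-x and miR-183-x lie between 41129 and 72686 CPM in the larval libraries and between 238 and 449 CPM in the postlarval ones, while miR-96-x stays above 9446 CPM in all 9 libraries.

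The second name of this sequence, miR-183-x, gave a similar picture, which is no separate support because the references are identical. Counts of miR-183-x were 313384, 301812 and 302031 in Pre-CL, 278185, 232659 and 221965 in CL, and 1611, 1788 and 2447 in PL. Its mean level was 58992 ± 10677 CPM (SD, n = 3) in Pre-CL, 45062 ± 4558 CPM (SD, n = 3) in CL and 316 ± 75.1 CPM (SD, n = 3) in PL. miR-183-x fell by a log2 fold change of -7.16 from CL to PL (standard error 0.29, edgeR adjusted p = 1.5e-07) and of -7.55 from Pre-CL to PL (edgeR adjusted p = 1.1e-07). The larval stages overlapped, and the change of -0.39 between them was not called (edgeR adjusted p = 0.247).

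The 2 names did not receive counts in one fixed proportion. The ratio of miR-183-x to miR-263-x counts was 0.888, 0.835 and 0.961 in Pre-CL, 0.944, 1.02 and 0.963 in CL, and 0.744, 0.772 and 0.863 in PL. The PL libraries were below all CL libraries and overlapped with the Pre-CL libraries. The log2 ratio was lower by 0.30 in PL than in CL, or -0.30 as PL minus CL, with a two-sided exact permutation p of 0.1, the smallest that 3 libraries against 3 can give. It was adjusted to 0.138 over the 18 comparisons of shares and ratios. Tags that differ from the shared reference could be divided between the names in different ways, and their part in this ratio was not tested.

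The miR-228-x reference, named after the nematode miRNA of glia, was counted in the larvae only, and at the lowest level of the family. It had 19, 14 and 28 counts in Pre-CL, 17, 13 and 14 counts in CL, and 0 counts in each PL library. A count of 0 allows up to 3 counts per library, and against this floor the mean CPM was at least 8.33-fold higher in Pre-CL and at least 5.51-fold higher in CL than in PL. miR-228-x was called lower in PL than in CL (edgeR adjusted p = 9.6e-04) and than in Pre-CL (edgeR adjusted p = 5.1e-04). In the larval libraries miR-228-x had 3.87 to 8.91 counts for every 100000 counts of miR-263-x. At the larval proportion, the 7315 miR-263-x counts of the PL libraries would correspond to 0.431 counts of miR-228-x, so at this depth a change of miR-228-x relative to miR-263-x was not detectable. In limma with 10 added to the values, which exceeds its level, it was not called. Whether the 105 larval counts were miR-263 tags with sequence differences was not tested.

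The members with the second seed differed from each other. miR-96-x, named after the vertebrate miRNA whose mutation causes hearing loss, remained an abundant miRNA of the postlarvae. Counts of miR-96-x were 127602, 117600 and 166790 in Pre-CL, 181834, 196956 and 147113 in CL, and 60556, 71071 and 81317 in PL. The PL libraries were the lowest, and the larval stages overlapped. The mean level was 27114 ± 10231 CPM (SD, n = 3) in Pre-CL, 32436 ± 5221 CPM (SD, n = 3) in CL and 11480 ± 1801 CPM (SD, n = 3) in PL, which placed miR-96-x at ranks 13, 12 and 17. miR-96-x fell 2.83-fold from CL to PL, with a log2 fold change of -1.50 (standard error 0.28, edgeR adjusted p = 0.0023), and 2.36-fold from Pre-CL to PL, with a log2 fold change of -1.24 (standard error 0.28, edgeR adjusted p = 0.0041). Between the larval stages the change was 0.26 and was not called (edgeR adjusted p = 0.546), and with CL 2 and CL 3 left out it was -0.023.

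The scaling decided whether this decrease was called. With total miRNA counts as library size, the log2 fold change of miR-96-x was -0.92 between PL and CL and -0.60 between PL and Pre-CL, and neither passed the fold limit. Relative to the median of all tested references, miR-96-x stood at -1.70 between PL and CL under TMM and at -1.71 under total counts. Between PL and Pre-CL it stood at -1.30 and -1.23. A change of scaling shifts all references by nearly the same amount. The closeness of these values was therefore fixed in advance and has no bearing on the call. The call between PL and Pre-CL also ended with clean reads as library size, in limma and under the study's rule on TPM. Without the library Pre-CL 3, which had the highest miR-96-x level of all, the change from Pre-CL to PL was -0.91 and the call was lost. Without CL 2 and CL 3, the libraries with the lowest sums of vertebrate miRNAs, the change from CL to PL was -1.14. CL 1 was then the only CL library.

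**Figure D2:**
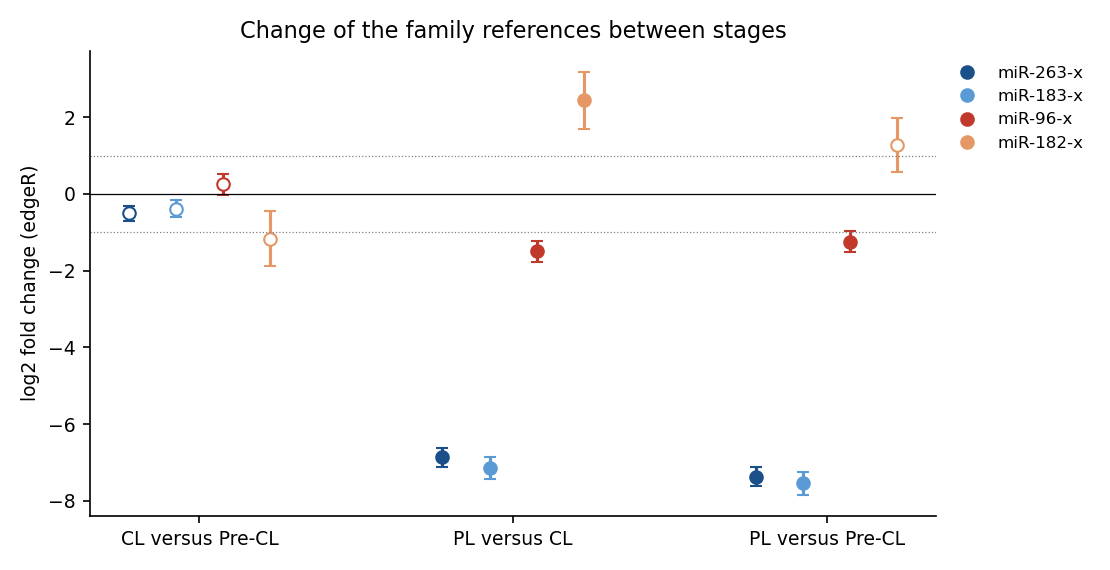
edgeR log2 fold change of miR-263-x, miR-183-x, miR-96-x and miR-182-x between stages. Bars are 1 standard error from the single fit of all 9 libraries, with 3 libraries per stage. Filled points were called, open points were not, and dotted lines mark the 2-fold limit. Both names of the first seed lie at or below -6.87 after metamorphosis, miR-96-x lies at -1.50 and -1.24, and miR-182-x lies above 0 at 2.44 and 1.28.

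miR-182-x, which shares the seed of miR-96-x and much of the remaining sequence of miR-263-x, was present at low levels and went in the opposite direction. Counts of miR-182-x were 334, 456 and 55 in Pre-CL, 302, 55 and 49 in CL, and 581, 807 and 867 in PL. The larval libraries fell apart within their stages. Pre-CL 1, Pre-CL 2 and CL 1 had 44.6 to 73.3 CPM, while Pre-CL 3, CL 2 and CL 3 had 10.4 to 12.7 CPM. The PL libraries were even, at 107 to 137 CPM, and lay above every larval library. miR-182-x rose from CL to PL by a log2 fold change of 2.44 (standard error 0.74, edgeR adjusted p = 0.026), from 22.0 ± 19.6 to 120 ± 15.4 CPM (SD, n = 3 each), a ratio of 5.46. The difference between PL and Pre-CL, at 49.5 ± 32.3 CPM (SD, n = 3), was 1.28 (standard error 0.71, edgeR adjusted p = 0.161) and was not called, nor was that of -1.16 between CL and Pre-CL (edgeR adjusted p = 0.287). The difference between PL and Pre-CL was called without the filter on low counts, at 1.32, and under the study's rule, at 1.74.

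The rise of miR-182-x from CL to PL did not hold without every library. The log2 fold change stayed between 2.13 and 3.49 when libraries were left out in turn, but the adjusted p was 0.079 without CL 2, 0.093 without CL 3, 0.053 without PL 2 and 0.086 without PL 3, all from edgeR. The summed level of 41 references from 31 families known from vertebrates, a list chosen after the data were seen, also varied within stages. It was 863, 804 and 1877 CPM in Pre-CL, 1276, 119 and 295 CPM in CL, and 1120, 1974 and 602 CPM in PL. Of these references, 9 to 28 were at 0 in a library, and miR-122-x, in vertebrates the main miRNA of liver, was not at 0 in any and gave 61.8 to 1490 CPM. The 2 libraries with the lowest sums, CL 2 and CL 3, also had the lowest miR-182-x levels, whereas Pre-CL 3 had the highest larval sum and a low miR-182-x level. Most of that sum was miR-122-x. Without miR-122-x the sums were 521, 256 and 421 CPM in Pre-CL, 358, 56.9 and 117 CPM in CL, and 345, 484 and 231 CPM in PL. Pre-CL 1, with the second highest larval level of miR-182-x, then had the highest larval sum. Pre-CL 3 had the second highest larval sum, with miR-182-x at 12.7 CPM. Pre-CL 2, with the highest larval miR-182-x level of 73.3 CPM, had a sum of 256 CPM. With CL 2 and CL 3 left out, an alternative added after the data were seen, CL 1 was the only CL library. The change of miR-182-x from CL to PL was then 1.52. Because CL 2 and CL 3 had the lowest miR-182-x levels, leaving them out lowers the change in any case. The part of these references in the miR-182-x result was not tested.

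Within a library, where the scaling cancels, miR-96-x was below miR-263-x in all larvae and above it in all postlarvae. For each count of miR-263-x there were 0.362, 0.325 and 0.531 counts of miR-96-x in Pre-CL, 0.617, 0.861 and 0.638 in CL, and 28.0, 30.7 and 28.7 in PL. No stages overlapped. The log2 ratio was 5.38 higher in PL than in CL, 6.20 higher in PL than in Pre-CL and 0.81 higher in CL than in Pre-CL, each with a two-sided exact permutation p of 0.1 (adjusted 0.138). The log2 ratio of miR-182-x to miR-263-x went from -10.7 ± 1.53 in Pre-CL and -11.4 ± 1.26 in CL to -1.71 ± 0.19 in PL (SD, n = 3, exact permutation p = 0.1 for PL against either). Between miR-182-x and miR-96-x, which have the same seed, the log2 ratio was -9.38 ± 1.90 in Pre-CL, -10.9 ± 1.41 in CL and -6.57 ± 0.12 in PL (SD, n = 3). It was higher in every PL library than in any larval library (exact permutation p = 0.1, adjusted 0.138).

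The seed of miR-96-x carried a minority of the family's counts in larvae and nearly all of them in postlarvae. Its share of the family's counts was 16.1, 15.1 and 21.3% in Pre-CL, 24.1, 29.9 and 24.5% in CL, and 94.2, 94.6 and 94.0% in PL. With miR-183-x left out as a second name of one sequence, the shares were 24.6 to 34.7% in Pre-CL, 38.2 to 46.3% in CL and 96.6 to 96.9% in PL.

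The 5 members together took 13.0, 12.6 and 13.3% of all miRNA counts in Pre-CL, 11.1, 9.83 and 11.7% in CL, and 1.73, 1.51 and 1.59% in PL. No stages overlapped, and each pair of stages had an exact two-sided permutation p of 0.1 (adjusted 0.138). As an alternative, miR-183-x was left out of the members' sum, with the total of all miRNA counts unchanged. This removes its tags whether or not they were also counted under miR-263-x. The difference between stages was then -1.01 in place of -2.08 percentage points between CL and Pre-CL. It was -5.35 in place of -9.28 between PL and CL, and -6.36 in place of -11.4 between PL and Pre-CL. miR-96-x alone took 1.90 to 2.83% in Pre-CL, 2.68 to 2.94% in CL and 1.41 to 1.61% in PL.

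**Figure D3:**
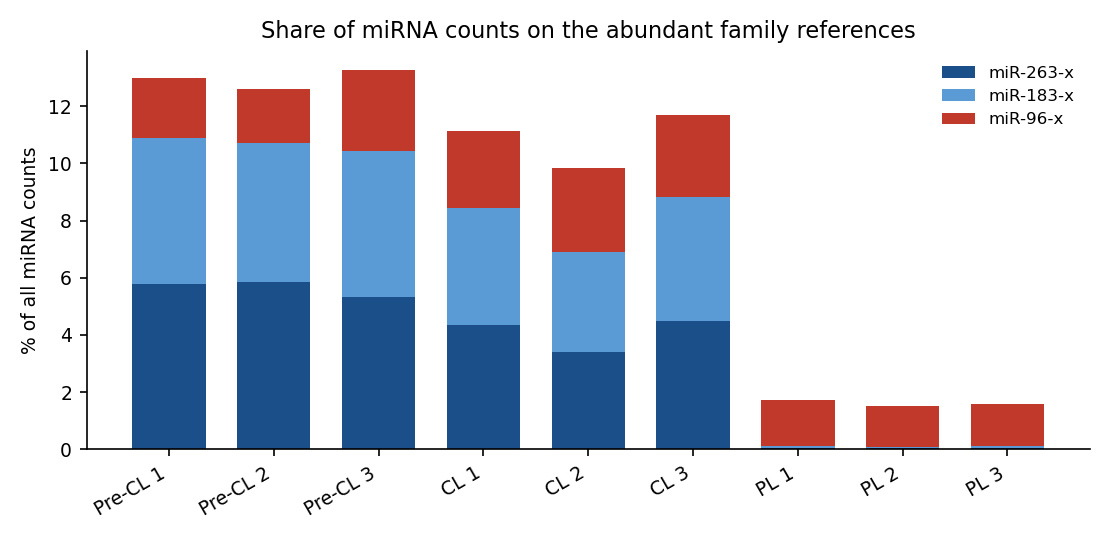
Percent of all miRNA counts of each library on miR-263-x, miR-183-x and miR-96-x, stacked from 0. miR-182-x and miR-228-x are too few to be seen and are not drawn. The whole stack is at least 9.83% in each larval library and at most 1.73% in each postlarval library, where miR-96-x makes up nearly all of it.

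Other miRNAs whose levels followed those of the members were found by Pearson correlation of log2 CPM over the 9 libraries, which share the stages and the scaling, so that any miRNA that differs strongly between larvae and postlarvae scores high. Closest to miR-263-x was miR-242-x (r = 0.994), at 134740 ± 8037 CPM in Pre-CL, 72190 ± 16293 CPM in CL and 24.8 ± 26.2 CPM in PL (SD, n = 3). It was followed by miR-92-x (r = 0.989), a miRNA predicted by the authors (r = 0.984), miR-71-x (r = 0.979) and miR-216-x (r = 0.967). miR-71-x, a protostome miRNA linked to lifespan in Caenorhabditis elegans, decreased less, from 139852 and 109331 CPM in the larval stages to 37612 CPM in PL. Closest to miR-182-x were miR-200-y (r = 0.907), miR-1992-y (r = 0.897), miR-79-x (r = 0.892), miR-219-x (r = 0.888) and miR-1175-x (r = 0.878). Of these, miR-1175-x had mean levels of 82.9, 51.2 and 351 CPM in Pre-CL, CL and PL, and miR-1992-y had 79.6, 50.4 and 328 CPM.

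Other conserved miRNAs of nervous and sensory tissue changed less than the first seed, with log2 fold changes from -1.44 to 2.69 in the comparisons with PL, against -6.87 and -7.37 for miR-263-x. Of a list of 22 references from 14 families, 18 were tested. Between CL and Pre-CL, 1 was called higher and none lower, by edgeR. Between PL and CL, 4 were called higher and 1 lower, and between PL and Pre-CL, 4 were called higher and 2 lower. Among all tested references, 10.3% were called higher and 9.35% lower, 22.4% and 14.5%, and 28.5% and 22% in these comparisons. The list's median log2 fold changes were -0.13, 0.57 and 0.40, beside -0.29, 0.20 and 0.06 for all tested references. The lowest log2 fold change in the list after metamorphosis was -1.44 between PL and CL, that of miR-375-y, a miRNA of neuroendocrine cells in vertebrates, which fell from 14857 to 5481 CPM (edgeR adjusted p = 0.0049). The most abundant of the list, miR-184-y, had 163874, 207283 and 118314 CPM in the 3 stages and was not called. miR-7-x, which acts in sensory organ specification in Drosophila, had 17430, 13878 and 19933 CPM and was not called. miR-124-y, the neuronal miRNA of most animals, rose from 46.1 ± 2.19 CPM in Pre-CL to 194 ± 48.4 CPM in CL (SD, n = 3, edgeR adjusted p = 0.0027). It was at 297 CPM in PL. In the list's other abundant members, miR-279-y had 69735, 64106 and 37798 CPM, miR-8-y 14402, 9787 and 17011 CPM, miR-9-z 6989, 5631 and 11124 CPM, miR-153-y 1612, 2115 and 2601 CPM, and miR-29-y 1812, 1641 and 925 CPM in Pre-CL, CL and PL, and none of these was called. Yet miR-279-y, miR-9-z and miR-29-y had an edgeR adjusted p under 0.05 in both comparisons with PL, with changes under 2-fold. The same held for miR-8-y between PL and CL. The 4 references called higher in PL than in CL were less abundant. They were miR-9-y (log2 fold change 2.59), miR-219-x (1.58), miR-190-x (1.49) and miR-8-x (1.34). miR-34-x fell from 2363 CPM in Pre-CL to 1057 CPM in PL (edgeR adjusted p = 0.021).

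The authors paired miRNAs with predicted target genes whose transcript levels, from an earlier transcriptome of the same stages, moved inversely. The directions of the targets below were therefore fixed by that selection and are no separate result. Their levels are the authors' mean FPKM of each stage, with no replicates. In the table of 30524 pairs, miR-263-x and miR-183-x were paired with the same 143 genes, miR-228-x with 146 and miR-182-x with 126. No pair of miR-96-x was in it. The authors selected pairs from the miRNAs that they found differentially expressed, and miR-96-x was not called under the study's rule as run here. miR-228-x shared 106 genes with miR-263-x, which is 74.1% of the miR-263-x genes and 72.6% of its own. miR-182-x shared 0 genes with the other members, as the selection of inverse pairs requires where the listed genes move in opposite directions from CL to PL. All 143 genes of miR-263-x had a higher mean at each later stage, with median FPKM of 2.69, 4.90 and 8.08. All 126 genes of miR-182-x were higher in CL than in both other stages, with medians of 6.50, 7.97 and 4.31. Over all 11401 targets in the table the medians were 4.40, 4.95 and 3.52 FPKM.

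Of the genes paired with miR-263-x and miR-183-x, 40 had a Swiss-Prot description. The gene described as m7GpppN-mRNA hydrolase (c66957_g1), the enzyme that removes the cap of messenger RNAs, had 9.40 FPKM in Pre-CL, 417 in CL and 1585 in PL. An IgGFc-binding protein (c148274_g1) had 0.01, 11.6 and 30.8 FPKM, and the gluconeogenesis enzyme phosphoenolpyruvate carboxykinase (c156526_g1) had 21.7, 75.2 and 110 FPKM. The tetraspanin CD151 antigen (c151819_g2) had 33.1, 75.2 and 101 FPKM. Src substrate cortactin (c146951_g1), which binds branched actin filaments, had 46.8, 47.9 and 82.5 FPKM. The paper also measured miR-263-x and cortactin by real-time PCR, and it reports inverse levels for every pair measured in that way. The Migration and invasion enhancer 1 gene (c127470_g1) reached 10.8 FPKM in PL, and 3′-5′ exoribonuclease 1 (c131015_g1), an enzyme that trims small and histone RNAs, reached 13.4 FPKM. Most of these genes were also paired with other miRNAs, 10 miRNAs in all for CD151, while Migration and invasion enhancer 1 and 3′-5′ exoribonuclease 1 were paired with members of the family only. Genes paired with miR-228-x and not with miR-263-x included Alpha-crystallin B chain (c149183_g2), a small heat shock protein, with 2.56, 4.70 and 17.0 FPKM, and Lysosomal alpha-glucosidase (c155999_g2), with 3.19, 9.84 and 19.4 FPKM.

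Of the genes paired with miR-182-x, 66 had a Swiss-Prot description. A gene described as 40S ribosomal protein S27-like (c134126_g1) was listed at 0, 37.0 and 0 FPKM in Pre-CL, CL and PL. Putative ferric-chelate reductase 1 (c155849_g1) had 133, 190 and 34.7 FPKM, and Aurora kinase A (c153825_g1), a kinase of the mitotic spindle, had 11.5, 14.4 and 3.74 FPKM. Propionyl-CoA carboxylase alpha chain (c155962_g1) had 13.7, 19.7 and 5.99 FPKM. An activator of the Hsp90 ATPase (c146840_g4), a cochaperone, had 15.1 FPKM in both larval stages and 6.24 FPKM in PL. Lamin Dm0 (c145599_g1), of the nuclear lamina, had 11.5, 16.4 and 7.04 FPKM.

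**Figure D4:**
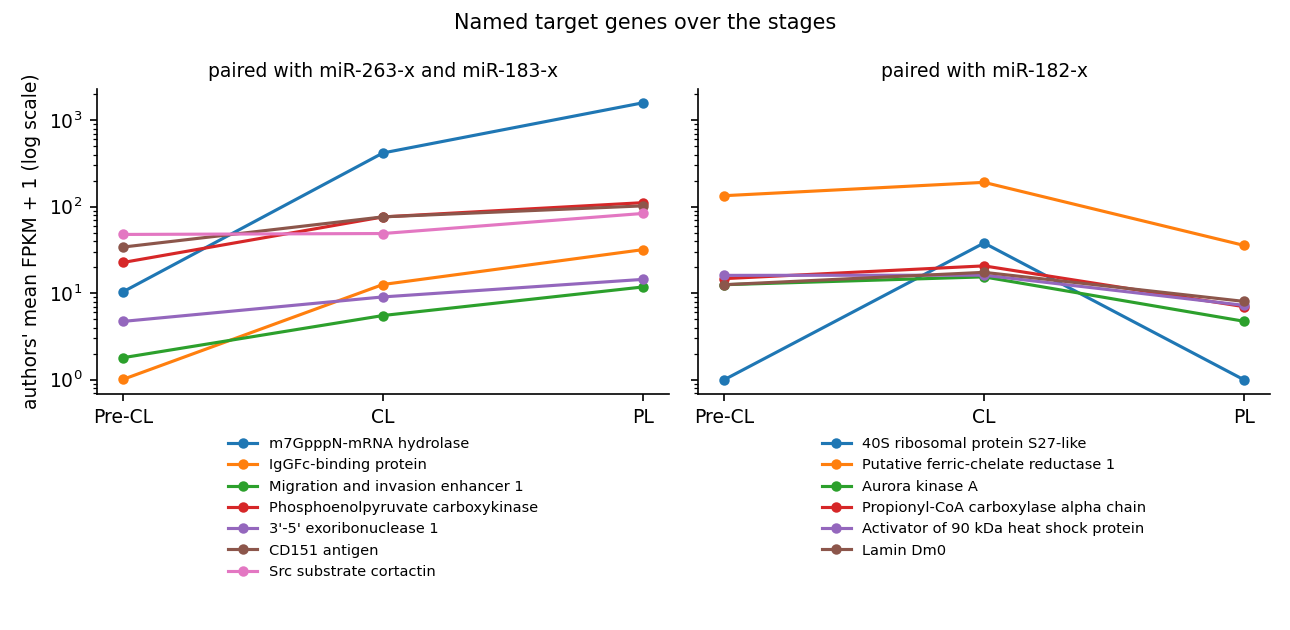
The authors' mean FPKM plus 1 on a log axis in the 3 stages, for named genes paired with miR-263-x and miR-183-x (left) and with miR-182-x (right), each line 1 gene. Genes on the left increase at each stage, with m7GpppN-mRNA hydrolase from 9.40 to 1585 FPKM, and genes on the right peak in CL, as the authors' selection of inverse pairs requires.

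Keyword lists were searched in the descriptions of the targets, with species names removed, a step added after the data were seen. None of the targets of any member was found by the words for sensory function, for cilia or for cell death. These words found 21, 66 and 34 of the 11401 targets in the table, which is under 1% for each list. With shares this low, lists of this length often hold none. Genes that fell at each stage, as the paper's tektin and dynein genes did, could not enter these lists of inverse pairs. The absence is therefore no result about the family's targets. With species names kept, the words for cilia found 2 genes each for miR-263-x, miR-183-x and miR-228-x, against 74 of all targets, and they matched only part of the fish name Poecilia. The words for synapse and nerve, which found 0.702% of all targets, found 2 genes paired with miR-263-x, a Discs large homolog 1-like protein (c142206_g1), a scaffold of synapses and cell junctions, with 5.98, 6.78 and 12.0 FPKM, and Neuropeptide FF receptor 2 (c151579_g1) with 13.0, 18.8 and 27.6 FPKM. For cytoskeleton and adhesion, which found 1.54% of all targets, cortactin was the only hit for miR-263-x, and Cofilin (c132243_g1) and Kinesin-like protein KIF2A (c144607_g1) were the hits for miR-182-x. For transcription, which found 0.772% of all targets, the 3 hits of miR-182-x were Transcription factor AP-1 (c120209_g1), Zinc finger RNA-binding protein (c122957_g2) and Homeobox protein Meis2 (c151724_g1), with 4.66, 11.7 and 9.36 FPKM in CL.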

How the data were processed

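The counts deposited by the authors are raw tag counts per miRNA reference. The authors removed tags of other RNA classes from the clean reads and aligned the remaining ones to miRBase with up to 2 mismatches. They summed these on 1 reference per family and predicted others with MIREAP. The clean reads given here, also used as a library size, are the totals before that removal. The authors' deposited TPM were treated as a score, because a count of 0 is written as 0.01 and the scale is the reads annotated as miRNA. They were used only for the study's own rule, run here as a t-test of equal variance on unlogged TPM. The FPKM deposited by the authors are stage means of an earlier transcriptome. The deposited fold changes, p-values and correlations of the authors were not used.

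The members and lists were chosen with earlier results of these data known. All 9 libraries entered a single fit in edgeR 4.0.16 (R 4.3.3) with TMM. References were filtered with filterByExpr by stage, and p-values of the quasi-likelihood test were adjusted over 214 references after Benjamini and Hochberg. A standard error is the absolute log2 fold change divided by the square root of F. Ratios of counts, with 0.5 added, and shares were compared in scipy 1.17.1 by exact permutation tests, all two-sided. Floors cover counting error only. The scripts were tested on simulated counts. Alternatives were total counts, clean reads or RLE as scaling, TMM without the members, DESeq2 1.42.0, limma 3.58.1 (pseudocount 1 or 10, log2 of counts scaled to clean reads), no or a stricter filter, only the 6 libraries compared, a replicate block, identical references taken once, the study's rule, no fold limit, and each library left out. Leaving out CL 2 and CL 3 together, and removing species names before the keyword search, were added after the data were seen.

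The named miRNAs are the members, references close to them in sequence, and the 5 with the highest correlation to miR-263-x or miR-182-x. Abundant references of the neural list were those over 1000 CPM in a stage. miR-124-y and the references of the list called higher in PL than in CL were added after their values were seen. The named targets are those that the paper lists for miR-263-x (c146951_g1) and miR-183-x (c66957_g1), and for each member the 6 described genes with the largest ratio of stage means on FPKM plus 1, among those reaching 10 FPKM. The keyword hits are also named, outside this rule. Target sites and binding were not analysed here.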

Additional observations from a re-analysis of the deposited data

How the results depend on the processing

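Of 354 fold changes of the 5 members under alternatives, 335 kept their direction and side of the call, 16 lost a call, 2 gained one and 1 changed sign, the uncalled value of miR-96-x between CL and Pre-CL, which was 0.26 and became -0.023 with CL 2 and CL 3 left out. The calls of miR-263-x and miR-183-x held in every alternative run. For miR-96-x, the log2 fold change between PL and CL was -0.92 with total counts and -0.94 under the study's rule, neither of them called. It was -1.14 with CL 2 and CL 3 left out, where CL 1 was the only CL library. Between PL and Pre-CL it was -0.60 with total counts, -0.995 with clean reads, -0.97 in limma with 1 or 10 added and -0.64 under the study's rule, none called, and ranged from -1.34 to -0.91 with libraries left out in turn. miR-228-x was at -0.20 and -0.29 in limma with 10 added, which left 2 members called between PL and Pre-CL. miR-182-x between PL and Pre-CL was called at 1.32 without a filter on low counts and at 1.74 under the study's rule. Between PL and CL it ranged from 2.13 to 3.49 with libraries left out in turn, and was 1.52 without CL 2 and CL 3. The family's share of counts, as a difference of percentages, moved to -1.01 between CL and Pre-CL, -5.35 between PL and CL and -6.36 between PL and Pre-CL with miR-183-x left out. Over clean reads the last 2 were -6.00 and -7.85. With miR-263-x and miR-183-x as identical references taken once, all other calls among members were unchanged. Replicate numbers did not pair the libraries (r of same-numbered libraries -0.28 to 0.29 over 9 pairs). With the replicate block, miR-182-x stood at 2.80 between PL and CL, and 0, 5 and 4 members were called in the 3 comparisons, as without it. Of the genes paired with miR-263-x, 59 reached 10 FPKM. The depth limits miR-228-x, which had 28 counts at most.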
